A study of Homo sapiens with 4 samples.

Results

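The lysosome and autophagy genes of ES-2 cells were read here as a set of 56 genes, chosen by name. The set holds lysosomal membrane proteins, luminal enzymes and their cofactors, members of the vacuolar proton pump, the transcription factors TFEB, TFE3 and MITF, and the autophagy machinery from its kinase to its receptors. All 56 were among the 19626 genes of the tables, and 55 of them were among the 12157 genes tested. ES-2 is an established human ovarian cancer line, labelled as clear cell carcinoma, that carries an endogenous YAP1-MAML2 (YM) fusion. Cells received pLKO.1 lentivirus with a non-targeting shRNA (shCtl, 2 libraries) or with an shRNA against MAML2 (shMAML2, 2 libraries; the hairpin that the study calls shM2-3). The hairpin matches the part of MAML2 that the fusion retains, and so acts on both transcripts. All 4 libraries came from 1 cell line and 1 targeting hairpin, and a change below cannot be assigned to the fusion or to MAML2 alone. By the labels of all 4 libraries, infections lasted 8 h per day and RNA was taken 96 h after the first infection. The study's methods give shorter infections. They also give a shorter time to RNA, without saying that it runs from the first infection.

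Lysosomes are acidic organelles in which hydrolases degrade proteins, glycans, lipids and nucleic acids. A proton pump, the V-ATPase, keeps them acidic. Macroautophagy brings cytoplasmic cargo to them: the ULK1 kinase complex and a lipid kinase complex start a membrane, ubiquitin-like ATG8 proteins are attached to it, receptors such as SQSTM1 tie cargo to ATG8 proteins, and the closed vesicle fuses with a lysosome. Many genes of both systems carry a short promoter sequence, the CLEAR element, that is bound by the MiT/TFE factors TFEB, TFE3 and MITF. These factors are held in the cytoplasm when the kinase complex mTORC1 is active at the lysosome.

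The libraries held between 20051083 and 23978660 estimated counts. MAML2, the targeted gene, had 1436 and 1402 counts under shCtl and 634 and 553 under shMAML2, a log2 fold change of -1.40 (standard error, SE, 0.0688, adjusted p = 5.18e-10 in the edgeR quasi-likelihood fit, adjusted by Benjamini-Hochberg). Reads from the part of MAML2 that the fusion retains can fall on this gene too, so the value measures neither transcript alone. Of genes listed to check the carcinoma label, the keratins KRT8 (RPKM 70.5 to 73.3 in shCtl, 29.1 to 29.7 in shMAML2), KRT18 (294 to 299, 176 to 179) and the mesenchymal filament VIM (2873 to 2969, 2037 to 2088) were abundant and lower in shMAML2, while the epithelial and clear cell markers PAX8, NAPSA and EPCAM had an RPKM under 1 in all 4 libraries and do not bear out the label. Macrophages are rich in lysosomes, and 5 of 7 listed leukocyte markers were in the tables. Their summed RPKM was between 0.603 and 1.06 in shCtl and between 3.02 and 5.14 in shMAML2. PTPRC, the pan-leukocyte marker, and CD3E, of T cells, had 3 counts or fewer in every library. The difference lay in CSF1R, which had 2 and 8 counts under shCtl and 230 and 223 under shMAML2, in CD14 (3 and 4 against 42 and 37) and in 1 shMAML2 library for LYZ (33 and 15 against 100 and 5). The summed RPKM of 6 fibroblast markers was 7.95 to 8.01 in shCtl and 25.1 to 25.7 in shMAML2, carried by PDGFRA, and COL1A2, COL3A1, DCN, LUM and POSTN were each under 0.5. The part of any of the 3 marker lists in the results below was not tested.

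Lysosome and autophagy transcripts were mostly higher after depletion of YM/MAML2, by small factors. Their summed RPKM (reads scaled by transcript length and library depth) was 2055 and 2140 in shCtl and 3140 and 3172 in shMAML2. The largest gains in mean RPKM were those of PSAP (258 to 598), CTSB (237 to 419), CTSA (76.0 to 191) and GRN (96.5 to 193). The RPKM of all genes together was 324319 and 325563 in shCtl, and 287746 and 295653 in shMAML2. Such a sum is no measure of total RNA, since it also depends on gene length. Over all genes tested, the length implied by counts and RPKM had a Spearman correlation of 0.184 with the log2 fold change. Among the members tested this correlation was -0.171. In bulk RNA, more cells with a transcript and more of it per cell cannot be told apart. Where the edgeR p, adjusted over all genes tested, was at most 0.05, 35 of the 55 members tested were higher, which is 63.6% against 36.3% of all genes tested. Another 8 were lower, 14.5% against 36.4%, and 12 did not pass in either direction. With the study's further limit of a 2-fold change, 10 members were called higher (18.2%, against 9.24% of all genes) and 1 was called lower (1.82%, against 8.93%). The median log2 fold change of the members was 0.36, and that of all genes tested was -0.0037. The RPKM values of the groups did not overlap for 50 of the 55 members, or 90.9%, a share near the 86.0% of all genes tested. The 5 members with overlapping libraries were GAA, PPT1, NBR1, OPTN and GABARAPL2.

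**Figure D1:**
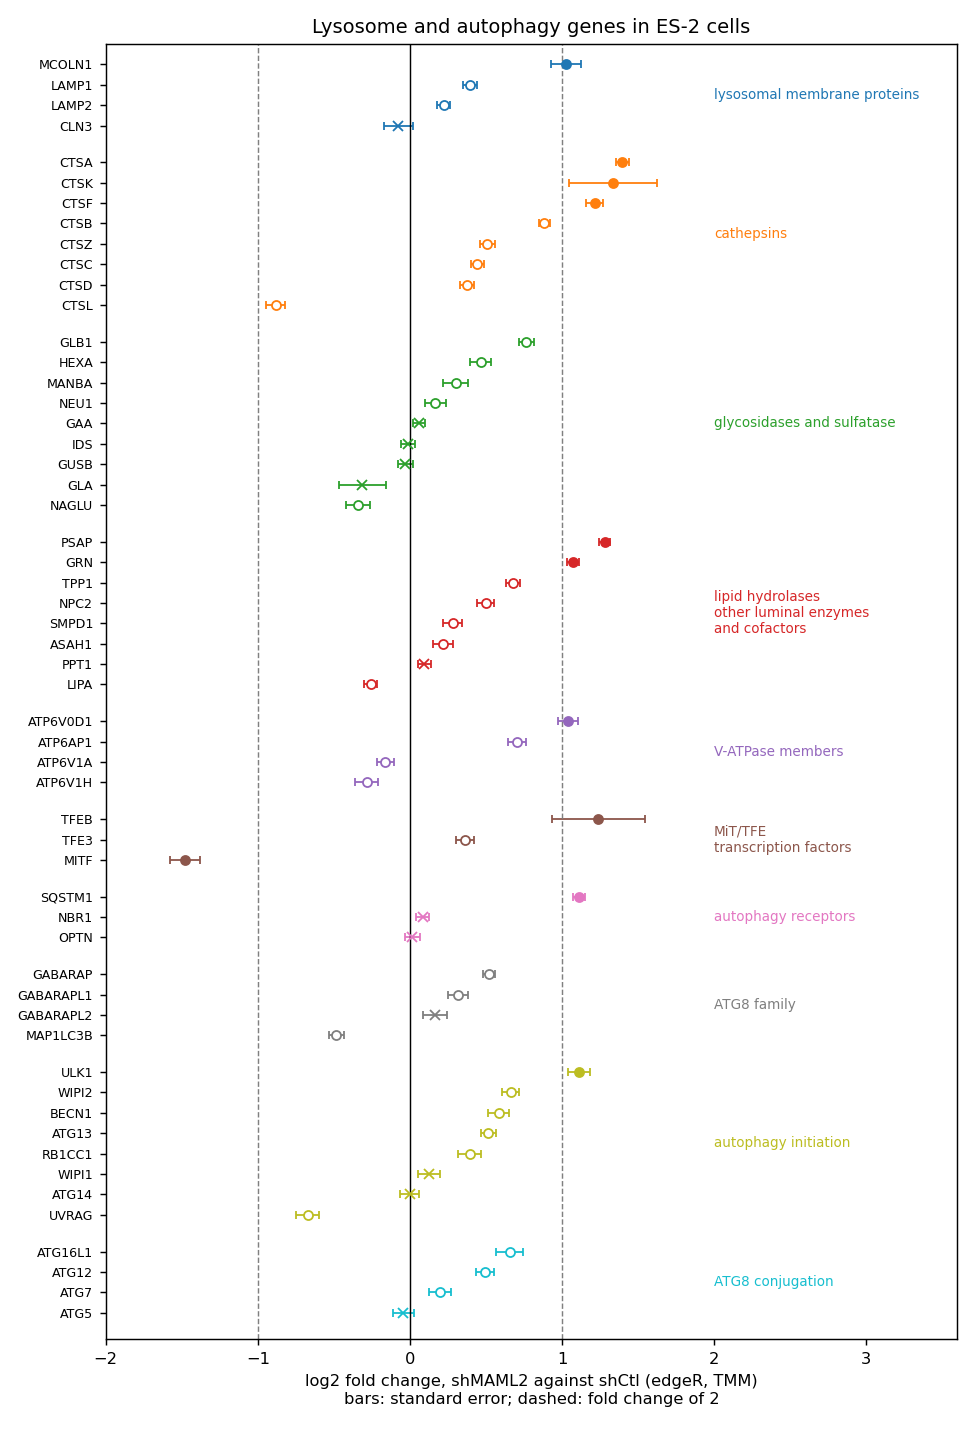
Log2 fold change (shMAML2 against shCtl, edgeR with TMM scaling) of the 55 members tested, grouped and coloured by role, with the standard error as bars. Filled circles passed an adjusted p of 0.05 and a fold change of 2, open circles passed the adjusted p alone, and crosses did not pass; 10 filled circles lie to the right of the dashed line at 1 and only MITF lies to the left of the line at -1.

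Of the 4 lysosomal membrane proteins, the largest change was that of MCOLN1 (chromosome 19 of hg38, 7522624 to 7534009), the channel that releases calcium from lysosomes. It had 273 and 320 counts under shCtl and 683 and 648 under shMAML2, or an RPKM of 6.02 ± 0.608 (SD, n = 2) against 11.7 ± 0.380. Both shMAML2 libraries were above both shCtl libraries, and the log2 fold change was 1.03 (SE 0.102, adjusted p = 7.47e-07 in the edgeR fit). This is close to the limit of 2-fold, and without shCtl replicate 1 or shMAML2 replicate 2 it was 0.93 or 0.99. LAMP1, a main glycoprotein of the lysosomal membrane, rose less, from an RPKM of 83.5 and 90.4 to 111 and 107 (log2 fold change 0.39, adjusted p = 3.20e-06 in the edgeR fit). LAMP2, needed for fusion with autophagosomes, rose by 0.22. CLN3, whose loss causes a juvenile storage disease, had 494 and 453 counts in shCtl against 503 and 488, and its log2 fold change of -0.08 did not pass the test (adjusted p = 0.504 in the edgeR fit).

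Of the 8 cathepsins tested, which are lysosomal peptidases, 7 rose and 1 fell at an adjusted p of 0.05 or less. These are 87.5% and 12.5%, against 36.3% and 36.4% of all genes tested. CTSA, a carboxypeptidase that also stabilizes NEU1 and GLB1 (chromosome 20, 45890144 to 45898949), had the highest log2 fold change of the cathepsins, ahead of the less precise CTSK, which exceeded it when shCtl replicate 2 was left out (1.66 against 1.42). Its RPKM was 74.5 and 77.4 in shCtl and 188 and 194 in shMAML2, with counts of 5415 and 5721 against 16702 and 15631. The log2 fold change was 1.40 (SE 0.0414, adjusted p = 2.58e-12 in the edgeR fit), and the groups lay far apart beside the spread between replicates. CTSF, a cysteine cathepsin (chromosome 11, 66563464 to 66568879), rose from 925 and 886 counts to 2466 and 2174, a log2 fold change of 1.21 (SE 0.0581). CTSK, known as the collagen-degrading protease of osteoclasts (chromosome 1, 150794880 to 150809577), was a scarce transcript. It had 30 and 46 counts under shCtl and 114 and 98 under shMAML2, and its log2 fold change of 1.34 had a standard error of 0.292. CTSB, the most abundant cathepsin, rose from an RPKM of 234 and 241 to 419 and 418, just short of the 2-fold limit at a log2 fold change of 0.88. CTSC, CTSD and CTSZ rose by between 0.38 and 0.51 on the log2 scale.
CTSL, a cysteine endopeptidase, went the other way. Its RPKM was 44.6 and 48.0 in shCtl and 23.9 and 24.1 in shMAML2, and it fell by 0.88 on the log2 scale (SE 0.0602, adjusted p = 1.65e-08 in the edgeR fit). CTSS, a cathepsin of antigen-presenting cells, had 5 and 11 counts under shCtl and 9 and 24 under shMAML2, and was the member left out of the test for its low values.

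The 9 glycosidases and sulfatase, which take apart glycans, had the lowest median of the luminal roles, a log2 fold change of 0.06. Of them, 4 rose and 1 fell (44.4% and 11.1%, against 36.3% and 36.4% of all genes). GLB1, the beta-galactosidase whose activity is used as a mark of senescence, rose from an RPKM of 32.3 and 34.9 to 53.8 and 55.3 (log2 fold change 0.77, standard error 0.0486, adjusted p = 7.70e-09 in the edgeR fit). HEXA, MANBA and NEU1 also rose, by 0.46, 0.30 and 0.17. NEU1 passed narrowly (adjusted p = 0.0447 in the edgeR fit) and did not pass with total counts (0.101) or in the DESeq2 Wald test (0.128). The HEXA libraries of shCtl stood further apart (1764 and 2205 counts) than those of shMAML2. NAGLU, which removes N-acetylglucosamine from heparan sulfate, fell from 13.6 and 12.9 RPKM to 10.5 and 9.44, a log2 fold change of -0.34 (SE 0.0812). GLA, GAA, GUSB and IDS, the enzymes deficient in Fabry, Pompe, Sly and Hunter disease, did not pass the test, with log2 fold changes between -0.32 and 0.06. GLA (-0.31, SE 0.155) did pass as lower when no filter on low values was used (adjusted p = 0.0188 in that edgeR fit). None of the 9 members of this role reached 2-fold.

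Of the 8 lipid hydrolases, other luminal enzymes and cofactors, 6 rose and 1 fell (75% and 12.5%, against 36.3% and 36.4% of all genes). PSAP, the precursor of the saposins that present sphingolipids to their hydrolases (chromosome 10, 71816298 to 71851251), was the most abundant member in every library by RPKM. It had 16351 and 17284 counts under shCtl and 47090 and 43038 under shMAML2, or an RPKM of 258 ± 7.06 (SD, n = 2) against 598 ± 4.01. Its log2 fold change was 1.28 (SE 0.0353, adjusted p = 1.28e-12 in the edgeR fit). GRN, progranulin, which binds PSAP on the way to the lysosome (chromosome 17, 44345246 to 44353106), rose with it. Its RPKM was 94.9 and 98.1 in shCtl and 194 and 193 in shMAML2, a log2 fold change of 1.07 (SE 0.0395). TPP1, a tripeptidyl peptidase, rose by 0.68, the cholesterol carrier NPC2 by 0.50, the sphingomyelinase SMPD1 by 0.28 and the ceramidase ASAH1 by 0.22. PPT1, which removes palmitate from proteins, had a log2 fold change of 0.09 that did not pass (adjusted p = 0.0699 in the edgeR fit). LIPA, the acid lipase that frees cholesterol from its esters, fell from an RPKM of 64.9 and 65.5 to 52.0 and 52.2, a log2 fold change of -0.26 (SE 0.0415, adjusted p = 8.08e-05 in the edgeR fit). Every shMAML2 library was below every shCtl library for LIPA, by a small step.

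**Figure D2:**
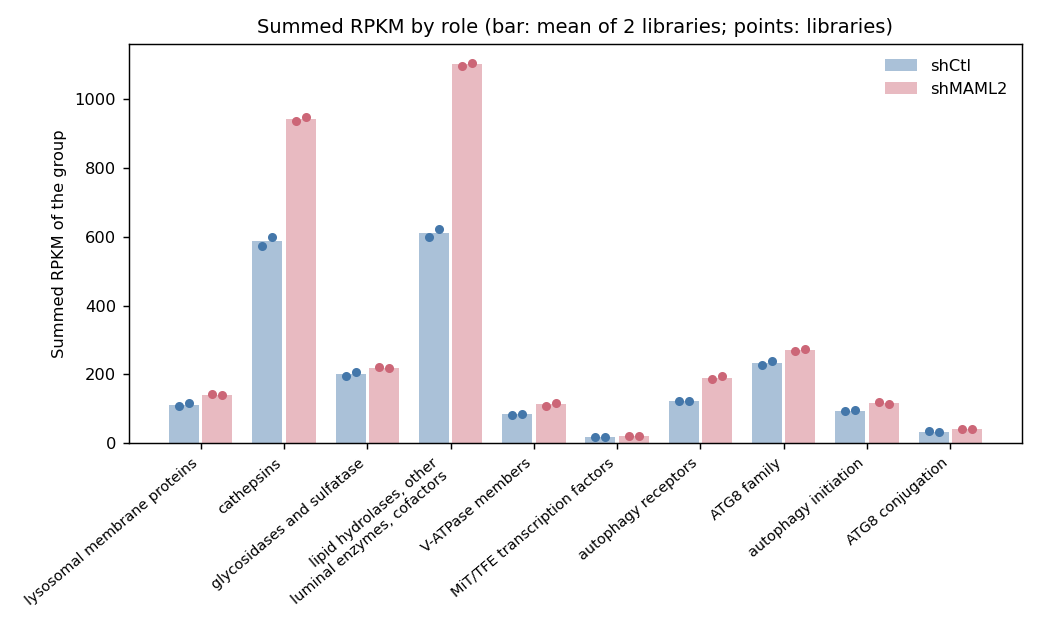
Summed RPKM of the members of each role, with bars for the mean of the 2 libraries of a group and points for the libraries. Cathepsins (574 and 600 in shCtl, 937 and 949 in shMAML2) and the role of PSAP and GRN (599 and 622 against 1097 and 1106) hold most of the increase, and the MiT/TFE factors stay under 20 in every library.

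The V-ATPase members moved unevenly, and 2 rose while 2 fell (50% each, against 36.3% and 36.4% of all genes). ATP6V0D1, a subunit of the membrane sector (chromosome 16, 67438014 to 67481181), had 761 and 826 counts under shCtl and 1832 and 1755 under shMAML2. Its log2 fold change was 1.04 (SE 0.0659, adjusted p = 7.92e-09 in the edgeR fit), and 0.99 without shCtl replicate 1 or without shMAML2 replicate 2, under the 2-fold limit. ATP6AP1, an accessory subunit needed for assembly, rose by 0.70 on the log2 scale, from an RPKM of 27.3 and 27.2 to 40.4 and 44.4. The 2 members of the cytosolic sector were lower. ATP6V1A, its catalytic subunit, fell by 0.16, and ATP6V1H, a regulatory subunit, fell by 0.28 from 1129 and 1293 counts to 1092 and 1098 in deeper libraries. Neither change passed under every setting. The adjusted p of ATP6V1A was 0.0218 in the edgeR fit and 0.0883 in the DESeq2 Wald test, and between 0.0540 and 0.182 without shCtl replicate 1 or without either shMAML2 replicate. That of ATP6V1H was 0.00465 in the edgeR fit, and 0.0635 without shMAML2 replicate 1.

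The 3 MiT/TFE transcription factors did not move in 1 direction. Of them, 2 rose and 1 fell (66.7% and 33.3%, against 36.3% and 36.4% of all genes). MITF, the factor of melanocytes and osteoclasts (chromosome 3, 69739456 to 69968336), was the only member called lower. It had 595 and 613 counts under shCtl and 245 and 233 under shMAML2, or an RPKM of 4.06 ± 0.0376 (SD, n = 2) against 1.39 ± 0.0471. Its log2 fold change was -1.48 (SE 0.101, adjusted p = 1.71e-08 in the edgeR fit), and 35.9% of the control level remained. TFE3 was the most abundant of the 3 in both groups, at an RPKM of 13.7 and 13.7 in shCtl and 16.5 and 17.2 in shMAML2, a log2 fold change of 0.36 (SE 0.0614). TFEB (chromosome 6, 41683978 to 41736259) was scarce, with 43 and 30 counts under shCtl and 107 and 84 under shMAML2. The TFEB groups did not overlap, and the log2 fold change was 1.24 (SE 0.306, adjusted p = 0.00254 in the edgeR fit). TFEB exceeded the RPKM of 1 needed for the test in the shMAML2 libraries alone, which favours a call of higher. Without shCtl replicate 2 it was 0.99, under the 2-fold limit, and without shCtl replicate 1 it was 1.54. Only mRNA was measured, and the location of these factors in the cell was not.

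Of the 3 autophagy receptors, only 1 passed the test (33.3%, against 72.7% of all genes in either direction). SQSTM1 (p62), which carries ubiquitinated cargo and is itself degraded by autophagy (chromosome 5, 179806398 to 179838078), was called higher. Its RPKM was 62.8 and 65.3 in shCtl and 130 and 134 in shMAML2, from 4799 and 5072 counts to 12146 and 11374. The log2 fold change was 1.11 (SE 0.0421, adjusted p = 3.38e-11 in the edgeR fit). NBR1, a receptor of related structure, had an RPKM of 32.2 and 32.3 in shCtl against 32.2 and 33.2 (log2 fold change 0.09, adjusted p = 0.0874 in the edgeR fit). OPTN, a receptor for damaged mitochondria and bacteria, was at 26.8 and 26.1 against 24.8 and 26.3. Its log2 fold change of 0.02 was the smallest in size of this role, did not pass (adjusted p = 0.784 in the edgeR fit) and turned negative with total counts in place of TMM scaling.

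The ATG8 family was divided. MAP1LC3B, the LC3 form used most often as a marker of autophagosomes, fell, while GABARAP and GABARAPL1 rose. MAP1LC3B had an RPKM of 47.1 and 46.6 in shCtl and 31.6 and 32.4 in shMAML2, a log2 fold change of -0.48 (SE 0.0488, adjusted p = 8.81e-07 in the edgeR fit). GABARAP was the most abundant of the 4 in every library and rose from an RPKM of 121 and 125 to 168 and 169, a log2 fold change of 0.52 (SE 0.0414). GABARAPL1 rose by 0.32, and GABARAPL2 had overlapping libraries and a value of 0.17 that did not pass (adjusted p = 0.0754 in the edgeR fit). In shCtl the RPKM of MAP1LC3B and GABARAPL2 stood close, at 46.9 ± 0.408 and 40.6 ± 4.67 (SD, n = 2 each). In shMAML2 their order was reversed, at 32.0 ± 0.586 against 43.6 ± 1.42. MAP1LC3B has a near-identical copy, MAP1LC3B2, which had 64 and 73 counts under shCtl and 48 and 32 under shMAML2, so the counts of both are uncertain.

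Of the 8 members that start autophagy, 5 rose and 1 fell (62.5% and 12.5%, against 36.3% and 36.4% of all genes), and 2 did not pass. ULK1, the kinase that starts the process and is inhibited by mTORC1 (chromosome 12, 131894622 to 131923150), had 533 and 558 counts under shCtl and 1372 and 1231 under shMAML2. Its RPKM was 4.34 ± 0.0887 (SD, n = 2) against 8.96 ± 0.0561, a log2 fold change of 1.11 (SE 0.0699, adjusted p = 7.04e-09 in the edgeR fit). Its partners in the complex, ATG13 and RB1CC1 (FIP200), rose by 0.51 and 0.39, and the RB1CC1 libraries of shMAML2 stood apart (4991 and 3656 counts). BECN1, of the lipid kinase complex, rose by 0.58, and WIPI2, which binds the lipid made by it, rose by 0.66. ATG14 and WIPI1 did not pass (adjusted p = 0.999 and 0.127 in the edgeR fit). UVRAG, the partner of BECN1 in the alternative form of the lipid kinase complex, fell from 1078 and 1015 counts to 775 and 675. Its log2 fold change was -0.67 (SE 0.0733, adjusted p = 1.96e-06 in the edgeR fit), and its RPKM was 8.99 and 8.33 in shCtl against 5.29 and 5.09.

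Of the 4 members that conjugate ATG8 proteins, 3 rose (75%, against 36.3% of all genes). ATG16L1, which places the conjugation machinery on the membrane, rose from an RPKM of 6.13 and 5.45 to 8.54 and 8.90, a log2 fold change of 0.66 (SE 0.0882, adjusted p = 1.49e-05 in the edgeR fit). ATG12, a ubiquitin-like protein, and ATG7, the enzyme that activates it, rose by 0.49 and 0.20. The adjusted p of ATG7 was 0.0248 in the edgeR fit, 0.0584 with total counts and 0.0903 in the DESeq2 Wald test. ATG5, to which ATG12 is joined, had 848 and 835 counts under shCtl and 953 and 849 under shMAML2. Its log2 fold change of -0.04 did not pass (adjusted p = 0.584 in the edgeR fit).

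**Figure D3:**
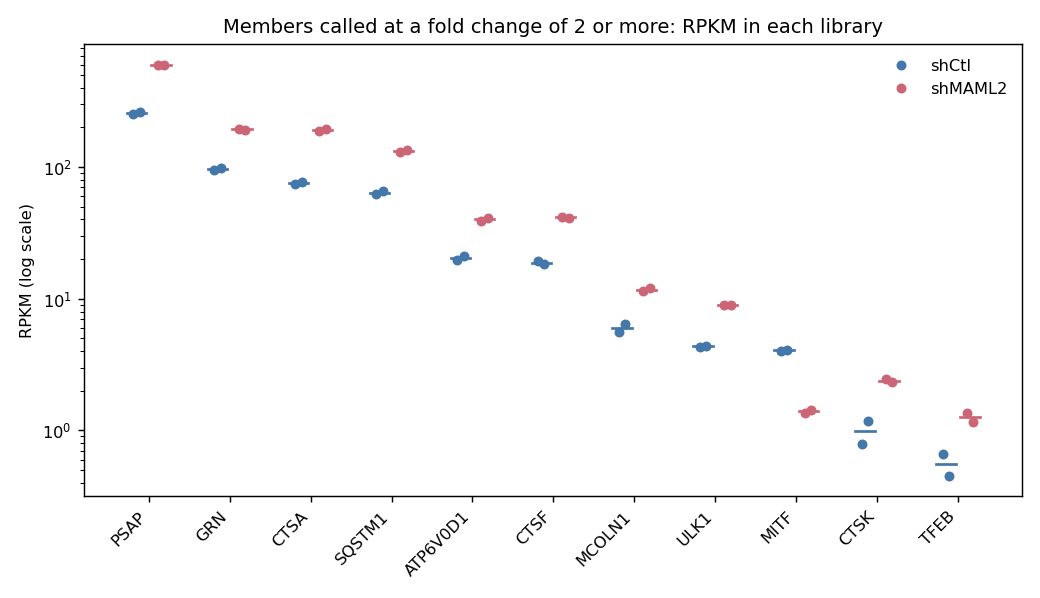
RPKM on a log scale in each library of the 11 members called at a fold change of 2 or more, ordered by their shCtl mean, with points for libraries and short lines for the group means. For 10 genes both shMAML2 points lie above both shCtl points, MITF is the reverse, and CTSK and TFEB show the widest gaps between replicates of shCtl.

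The members differed widely in level. By RPKM in shCtl, the order began with PSAP (253 and 263), CTSB (234 and 241), CTSD (128 and 139) and GABARAP (121 and 125), and the libraries of neighbours in this order did not overlap. In shMAML2 it began with PSAP (596 and 601), CTSB (419 and 418), GRN (194 and 193) and CTSA (188 and 194). GRN and CTSA could not be ordered by their libraries in shMAML2, whereas in shCtl GRN (94.9 and 98.1) was above CTSA (74.5 and 77.4). At the low end, TFEB, CTSK and CTSS had a mean RPKM under 1 in shCtl.

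The libraries carry no strand, and exons that a member shares with another gene cannot be told apart. Shares were taken over the merged exons of GENCODE v44, whereas the counts were made on RefSeq genes. They need not hold for the counted sequence. CTSA shares 21.5% of its exonic bases with other genes, among them PLTP and NEURL2 on the opposite strand. PLTP rose by 0.31 on the log2 scale, from an RPKM of 64.5 to 76.5, and NEURL2 had 23 and 29 counts against 33 and 43. SQSTM1 shares 22.4%, mostly with MRNIP, which had 178 and 214 counts against 169 and 169. How far reads of such neighbours enter the counts of CTSA and SQSTM1 was not tested. CTSD and GABARAP share 48.0% and 48.2% of their exonic bases and IDS 75.9%, mostly with overlapping annotated genes on the same strand for GABARAP and IDS. CTSZ, CLN3, WIPI1 and ATG14 share 31.7%, 31.1%, 28.1% and 20.8%. ATG7, BECN1 and HEXA share 18.1%, 17.1% and 16.7%. For MCOLN1, CTSF, CTSK, PSAP, GRN, ATP6V0D1, TFEB, MITF and ULK1 the share was 5% or less.

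RefSeq windows on GRCh38.p14 (the hg38 build), from 250 bases before to 50 bases after a gene's start, were found for 43 of the 56 members. PSAP, CTSB and CTSK were among the members without a window, so their promoters were not read. The 8-letter core of the CLEAR element, TCACGTGA, reads the same on both strands and was present for 6 of the 43 members (14%), against 1.18% of the 27305 genes with a window and 2.41% of the tested genes with one. They were CTSA, MCOLN1, ATP6V0D1, LAMP1, GAA and CLN3. The stretches before the start of the first 5 are shown, since they hold called and uncalled genes with the same letters. Capitals mark the core, each line is read 5′ to 3′ on the strand of its gene, and the second core of LAMP1 and those of CLN3, which lie across or after a start, are not printed. The starts are those of RefSeq transcripts, and for CTSA, GAA and ATP6V0D1 they lie inside the longer gene spans of GENCODE.
CTSA, chr20:45891298-45891327, plus strand: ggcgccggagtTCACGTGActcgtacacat
MCOLN1, chr19:7522571-7522600, plus strand: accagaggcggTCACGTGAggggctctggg
MCOLN1, chr19:7522598-7522623, plus strand: gggctaccgggTCACGTGAccgaggc
ATP6V0D1, chr16:67481199-67481228, minus strand: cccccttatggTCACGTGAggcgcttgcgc
LAMP1, chr13:113297199-113297228, plus strand: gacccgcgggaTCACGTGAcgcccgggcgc
GAA, chr17:80101493-80101522, plus strand: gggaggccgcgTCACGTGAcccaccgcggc
GAA, chr17:80101538-80101567, plus strand: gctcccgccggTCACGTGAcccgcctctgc

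The cores began between 15 and 77 bases before the start in these lines. CTSA, MCOLN1 and ATP6V0D1 were called higher (log2 fold changes 1.40, 1.03 and 1.04), LAMP1 rose by 0.39, and GAA and CLN3, at 0.06 and -0.08, did not pass. Among all tested genes with the core in a window, 20 of 231 (8.66%) were called higher, against 8.93% of those without it. The shorter E-box core CACGTG, which lies within every CLEAR core, was present for 10 members (23.3%, against 8.77% of all genes with a window and 12.6% of the tested ones). GGAATG, the core letters bound by TEAD factors (either strand), was present for 9 members (20.9%, against 16.7% and 15%). Those 9 included MITF, which was called lower, and GRN and ULK1, which were called higher. A match is a string of letters and no measure of binding.

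Other genes of the pathway were read from 5 lists written by name. Summed RPKM was 391 and 403 in shCtl against 476 and 479 in shMAML2 for other hydrolases. It was 558 and 557 against 562 and 568 for membrane and sorting genes, and 375 and 397 against 406 and 409 for other V-ATPase subunits. The sum was lower in shMAML2 for mTORC1 at the lysosome (338 and 342 against 279 and 295). It was also lower for the remaining autophagy machinery (838 and 843 against 537 and 531). Most of that fall lay in BNIP3 (mean RPKM 388 in shCtl, 94.1 in shMAML2), while the median log2 fold change of the list was 0.17. Of 23 other lysosomal hydrolases and cofactors tested, 14 rose and 6 fell at an adjusted p of 0.05 or less (60.9% and 26.1%, against 36.3% and 36.4% of all genes tested), and their median log2 fold change was 0.43. Of these, 5 were called higher (21.7%, against 9.24% of all genes) and none lower in the edgeR fit. CTSO, a cysteine cathepsin, rose from 129 and 118 counts to 770 and 669, a log2 fold change of 2.40 (SE 0.113). IDUA, of heparan and dermatan sulfate breakdown, rose by 1.56 (121 and 150 counts against 534 and 354), and GALC, the galactosylceramidase, rose by 1.41. In the list of 19 lysosomal membrane and sorting genes, 13 rose and 6 fell (68.4% and 31.6%), with a median of 0.26, and the 2 called higher (10.5%) were near the share of all genes. OSTM1, the partner of the chloride transporter CLCN7, rose from 304 and 271 counts to 1165 and 1139 (log2 fold change 1.86). IGF2R, the receptor that sorts mannose 6-phosphate enzymes to lysosomes, rose from an RPKM of 13.8 and 13.9 to 32.7 and 32.4 (1.30). Of 16 other V-ATPase subunits, 6 rose and 6 fell (37.5% each, the level of all genes tested), with a median of 0.10. ATP6V1B1 was called lower on few counts (26 and 54 against 20 and 7), and entered the test only through shCtl replicate 2, where it was highest.

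Of 22 genes of mTORC1 at the lysosome, 10 rose and 9 fell (45.5% and 40.9%, near the 36.3% and 36.4% of all genes tested), with a median log2 fold change of -0.06. RRAGD, a Rag GTPase of the complex and a known MiT/TFE target, fell furthest, from 476 and 523 counts to 150 and 106 (log2 fold change -2.11, standard error 0.136). RHEB, the GTPase that switches mTORC1 on, fell from an RPKM of 45.3 and 47.1 to 17.8 and 19.2 (-1.26). NPRL2, of the complex that restrains mTORC1 when amino acids are short, fell by 1.02. SLC38A9, the lysosomal arginine sensor, rose by 1.52 (179 and 139 counts against 465 and 537), and TSC1, of the complex that holds RHEB off, rose by 1.01, close to the 2-fold limit. In the remaining autophagy machinery, 16 of 34 genes rose and 9 fell (47.1% and 26.5%), with a median of 0.17, and 2 were called in each direction (5.88% each, below the 9.24% and 8.93% of all genes). BNIP3, a mitophagy receptor induced by hypoxia, fell from an RPKM of 383 and 394 to 91.9 and 96.2, a log2 fold change of -1.98 (SE 0.0428). EPG5, a tether for the fusion of autophagosomes with lysosomes, fell by 1.87, from 4066 and 4042 counts to 1253 and 1189. MAP1LC3A had 6 and 1 counts in shCtl against 28 and 31, a log2 fold change of 2.89 with a standard error of 0.731. It entered the test only through shMAML2 replicate 2, so that its call was favoured by the filter. WDR45, a WIPI protein, rose by 1.03. Each gene given with values in this and the last paragraph passed an adjusted p of 0.05 and a fold change of 2 in the edgeR fit.

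**Figure D4:**
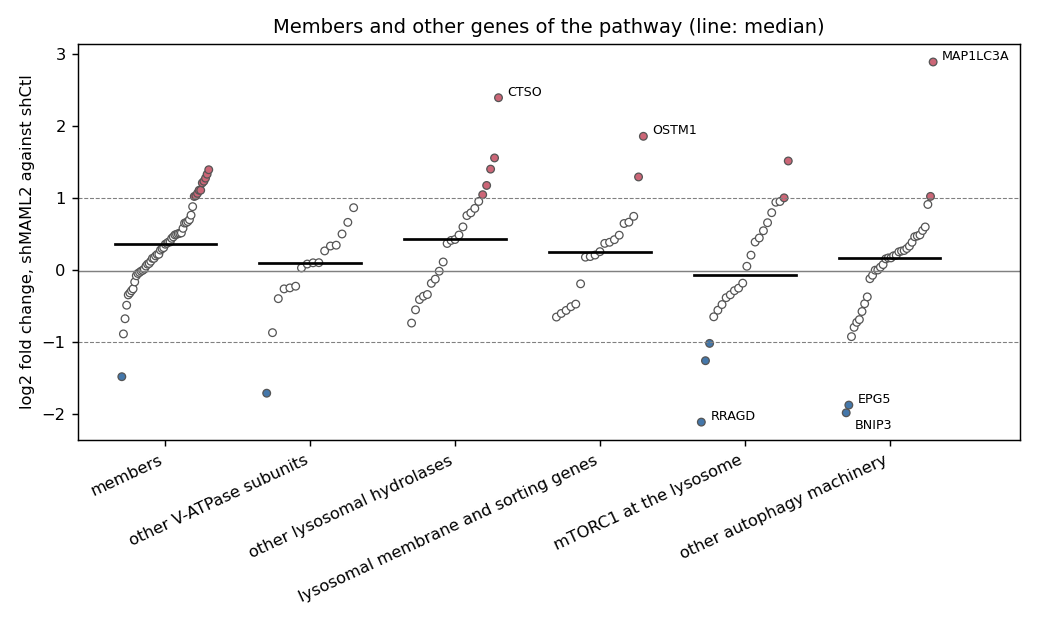
Log2 fold change (shMAML2 against shCtl, edgeR with TMM scaling) of each tested gene, for the 55 members and for 5 lists of other genes of the pathway, with a black line at each median. Red and blue points passed an adjusted p of 0.05 and a fold change of 2; the medians run from -0.06 for mTORC1 at the lysosome to 0.43 for the other hydrolases, and the grey line is the median of all genes tested.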

How the data were processed

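RNA-seq of ES-2 cells (shCtl and shMAML2, 2 libraries each, grouped by their labels) was read from the deposited tables. The authors aligned paired 150-base reads to hg38 with HISAT2 2.0.4, kept unambiguous alignments of mapping quality 10 or more, and quantified RefSeq genes in Partek 7.18. Their deposited estimated counts carry no scaling, and 42.4% to 48.6% of them per library are whole numbers, with no tolerance. The deposited RPKM values are these counts scaled by length and library.

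Estimated counts were rounded and tested with edgeR 4.0.16 in R 4.3.3 (TMM, glmQLFit, glmQLFTest, no block). A gene entered the test if its RPKM exceeded 1 in any library, and was called where its p, adjusted by Benjamini-Hochberg, was at most 0.05, with or without a fold change of 2. The standard error is the log2 fold change over the square root of F. Alternatives were DESeq2 1.42.0, limma 3.58.1 on log2 RPKM, other scalings and filters, leaving out single libraries, and a replicate block. In simulated counts for the 12157 genes tested, 97 of 100 planted 2.5-fold and 100 of 100 planted 4-fold changes were recovered, and 6 unchanged genes were called. The simulation used the dispersions of the main fit, and changes were planted only in genes above a floor of expected counts. It does not cover scarcer genes, or data in which 72.7% of genes pass an adjusted p of 0.05, as here.

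The members, lists and naming rule (called members, the extremes of each role, the MiT/TFE factors, LAMP1, SQSTM1 and MAP1LC3B; of each list, up to 3 called genes per direction) were chosen with earlier results of these data known. Values of other members, and of PLTP, NEURL2 and MRNIP, were added after values were seen. With 2 libraries per group, an exact permutation test of a single value cannot go below p = 0.333. The labels call the replicates biological. Replicates differed by 3.44 (shCtl) and 3.98 (shMAML2) times the variance that sampling gives, so they were distinct libraries. 1 of the listed marker genes is not reported here.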

Additional observations from a re-analysis of the deposited data

How the results depend on the processing

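Of the 11 members called at 2-fold, the same 11 were called with DESeq2 size factors, with the DESeq2 Wald test, with filterByExpr, with the replicate block and without shMAML2 replicate 1. MCOLN1 lost its call with total counts, without a filter, on log2(RPKM + 0.1), without shCtl replicate 1 and without shMAML2 replicate 2, and ATP6V0D1 lost it in the last 3 of these; TFEB lost it without shCtl replicate 2. On log2(RPKM + 1), 4 members were called higher in place of 10 (over all genes, 596 in place of 1123), and MCOLN1, ATP6V0D1, TFEB, CTSK, GRN and ULK1 lost their calls; the cause was not tested. With a fold limit of 1.5, 16 were called higher and 3 lower. All genes were not counted at that limit, so these numbers have no share to be set against. Leaving out a library gave 8 to 10 called higher and 1 called lower, and 33 to 34 higher and 7 to 8 lower at adjusted p alone. The median log2 fold change of the members was 0.33 with total counts, 0.29 on log2(RPKM + 0.1) and 0.28 on log2(RPKM + 1), where the median of all genes was -0.0390, -0.0683 and -0.0588, and it lay between 0.32 and 0.37 when 1 library was left out. OPTN turned to -0.0194 (total counts), -0.0149 (no filter), -0.00072 (filterByExpr), -0.0500 and -0.0483 (log2 RPKM with 0.1 and 1 added), and ranged from -0.0325 to 0.067 when 1 library was left out. CLN3 ranged from -0.152 to 0.0042 when 1 library was left out. ATG14, GAA, IDS and GUSB also changed sign under some settings, and none of these 6 passed the test in any setting. With the replicate block 36 members in place of 35 were higher at adjusted p alone, and no other count moved. The replicate numbers share only a name: deviations of same-numbered libraries from their group means had a correlation of -0.0287. At adjusted p alone, NEU1, ATG7, ATP6V1A, ASAH1 and ATP6V1H failed under at least 1 setting, and every other member that passed did so in all settings run. Depth limits TFEB, CTSK and CTSS, which rest on few counts.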
